A study of Caenorhabditis elegans with 6 samples.

Results

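The F-box A genes of Caenorhabditis elegans are the genes named fbxa with a number, one of the named families of F-box genes in this worm. Members were taken by current gene symbol, through the array annotation and the Entrez gene number. No measured value entered that rule, but the members and lists described here were chosen with earlier results of these data known. The names list 222 such genes, of which 171 had a probe set naming them alone and make up the set described here, out of 17118 genes measured. Of the other 51 genes, 14 appear only on probe sets that name several genes and 37 appear on no probe set. Each gene was read on a single probe set, the one with the highest mean where a gene had more than one.

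F-box proteins are the substrate adaptors of SCF ubiquitin ligases: the F-box binds a SKP1-related protein, which docks on a cullin scaffold, and the rest of the F-box protein holds the substrate to be tagged with ubiquitin. In fbxa proteins the F-box is typically joined to an FTH domain, and the family is strongly expanded in Caenorhabditis, so that most members have no described substrate. Among the few with a described role, fbxa-75 and fbxa-158 encode adaptors of the cullin 6 ligase, which acts in the intracellular pathogen response of the worm and in its resistance to heat.

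The study set worms fed tyrosol, a phenolic alcohol of olive oil, against worms on vehicle, in worms that all carry fer-15(b26), an allele that leaves the sperm defective at high temperature. The control group was fer-15(b26) on plates with 0.1% ethanol, and the tyrosol group was fer-15(b26) on plates with 250 µM tyrosol in the same 0.1% ethanol; both were grown at 25 °C on E. coli OP50, exposed from the egg and collected on day 4 of adulthood. RNA of whole worms was read on Affymetrix C. elegans Genome Arrays, 3 per group, and all values below are log2 values made with RMA, a method that corrects background, equalises the arrays and summarises the probes of each probe set. The labels give replicate numbers without naming separate cultures, so a p-value here reflects only how far these arrays spread.

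The 6 arrays had medians between 2.57 and 2.61, and their mean correlation with the other arrays lay between 0.991 and 0.995. Tyrosol replicate 2 stood apart, with an SD of 0.213 around the mean of its group, against 0.111 to 0.154 on the other arrays. On 3 spiked poly-A controls the 3' probe set read higher than the middle one, by 2.20 there and by 1.08 to 1.24 elsewhere. Markers of intestine had mean levels of 7.83 to 7.95, those of body wall muscle 5.43 to 5.72 and those of oocytes 9.22 to 9.82. The lowest muscle and oocyte means, 5.43 and 9.22, were both those of tyrosol replicate 2. The other arrays gave 5.52 to 5.72 and 9.56 to 9.82. Sperm markers differed between the groups. The rank product called 22 of 26 higher with tyrosol, against 0.865% of all genes, and 1 of the 26 was below 0. Their mean level ran from 3.12 to 3.95 on the control arrays and from 4.64 to 4.77 on the tyrosol arrays. That list holds msp genes, a single family, and a few spe genes. When the arrays were paired by replicate number, the 22 called genes were all msp genes. The later embryo markers noah-1 and noah-2 (2 of 6 called) and the epidermis marker wrt-10 (1 of 4 called) were also called higher by the rank product. The later embryo list was split, with 3 genes above 0 and 3 below, 2 without overlap on each side, and a median of -0.078. In the epidermis list 3 genes were above 0 and 1 below. Because whole worms were read, fewer cells of a type and less RNA per cell cannot be told apart.

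No F-box A gene was called higher or lower with tyrosol. The rank product, the test named in the study's design, called 0 of 171 members higher, against 0.865% of all genes, and 0 lower, against 0.0234%, at a false discovery rate under 0.05. With limma, 0 members had an adjusted p under 0.05, against 0.351% of all genes. At an unadjusted limma p under 0.05 there were 4 members, or 2.34%, against 7.21% of all genes. Most members were faint: 132 had a mean level no higher than 2.58, the median over all probe sets. Of the 8598 genes in that range the rank product called 10 higher and 0 lower, and limma called 4. An unadjusted limma p under 0.05 was found for 360 of these genes and for 2 of the 132 members. With 1 array left out the count over the whole family ran from 3 to 13. It was 13 without tyrosol replicate 1, 9 without control replicate 2 or tyrosol replicate 2, and 6 without tyrosol replicate 3. The share over all genes was not worked out for these fits, so the counts cannot be read against a background. With all arrays the 4 members were fbxa-153, fbxa-163 and fbxa-105, with higher means on tyrosol, and fbxa-192, with a lower mean.

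The differences were also small. Over the 171 members the difference, tyrosol minus control, ran from -0.33 to 0.39, with quartiles of -0.10 and 0.054 and a median of -0.0096, beside a median of -0.017 over all genes. The difference was above 0 for 79 members and below 0 for 92, and it exceeded 0.2 in size for 25. The SE of a member's difference had a median of 0.114 and ran from 0.085 to 0.214. The 95% interval of the difference stayed within a 2-fold change either way for all 171 members, as for 98.6% of all genes, and within a 1.5-fold change for 92.4% of members, against 89.2% of all genes. These intervals bound the RMA values; a faint probe set may compress a change in RNA.

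**Figure D1:**
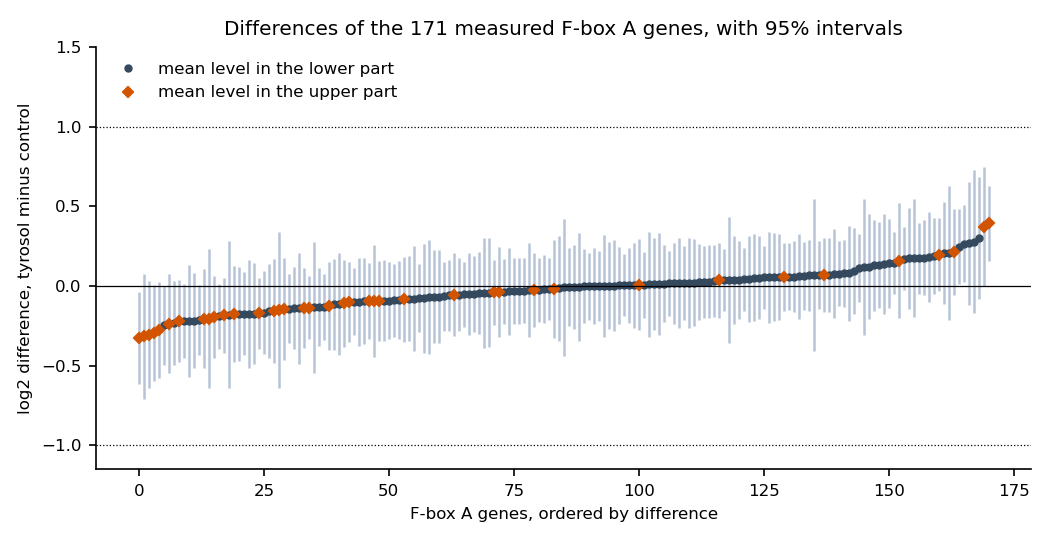
Log2 difference between the tyrosol and control means (vertical axis) for the 171 measured F-box A genes, ordered by difference; bars are 95% intervals from limma and dotted lines mark a 2-fold change. Orange diamonds are genes with a mean level above 2.58, the median over all probe sets, and dark circles the rest; every interval lies inside the dotted lines, and the orange diamonds lie mostly among the negative differences.

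In 15 members the 3 tyrosol values all lay on one side of the 3 control values, 8 of them higher and 7 lower. That is 8.77% of the family, beside 13.7% of all genes; by direction it is 4.68% against 6.92% for higher and 4.09% against 6.78% for lower. Among members with a mean level no higher than 2.58, 10 of 132 were without overlap, beside 781 of 8598 genes in that range. With all 6 arrays the shares in the whole family are below those over all genes. With 1 array left out that order turned without tyrosol replicate 1, at 26.9% of members against 22.9% of genes, and without control replicate 2, at 24.0% against 23.8%.

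The gene with the largest difference was fbxa-153. Its values were 5.09, 4.99 and 4.82 on the control arrays and 5.37, 5.42 and 5.29 on the tyrosol arrays. All 3 tyrosol arrays read above all 3 controls, and each group held together closely. The means were 4.97 ± 0.13 and 5.36 ± 0.069 (SD, n = 3 each), a difference of 0.39 (SE 0.10, 95% interval 0.16 to 0.63), with a limma adjusted p of 0.298. It was also the member with the lowest false discovery rate for higher values in the rank product, at 0.384.

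The next in size was fbxa-150, with 3.62, 3.64 and 3.61 on the control arrays and 3.64, 4.33 and 4.01 on the tyrosol arrays. Tyrosol replicate 1 read like the controls and replicates 2 and 3 read higher, so the groups overlapped. The difference was 0.37 (SE 0.16) with a limma adjusted p of 0.684, and without tyrosol replicate 2 it was 0.20. A second probe set of the gene, with readings from 1.23 to 1.56, gave -0.023 (SE 0.12).

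Among members with a mean level above 5, fbxa-107 was the other one with higher values on every tyrosol array. It read 5.77, 5.66 and 5.77 on the control arrays against 5.97, 5.79 and 6.03 on the tyrosol arrays. The lowest tyrosol value stood just above the highest control value. The difference was 0.20 (SE 0.10, limma adjusted p 0.751).

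The other 6 members whose tyrosol arrays all read higher were fbxa-163, fbxa-105, fbxa-209, fbxa-28, fbxa-113 and fbxa-62, all on probe sets with a control mean from 0.93 to 1.37, below the array median. For fbxa-163 the control arrays read 1.39, 1.38 and 1.33 and the tyrosol arrays 1.81, 1.51 and 1.56. For fbxa-105 they read 1.15, 1.19 and 1.27 against 1.60, 1.43 and 1.33. In both genes tyrosol replicate 1 was the highest array. The differences were 0.26 (SE 0.11) and 0.25 (SE 0.10), with limma adjusted p values of 0.634 and 0.652; those of the other 4 genes ran from 0.14 to 0.19. Leaving out 1 array gave 0.17 for fbxa-163 (without tyrosol replicate 1), 0.10 for fbxa-209 (without tyrosol replicate 2) and 0.11 for fbxa-28 (without control replicate 1). A difference of this size on a faint probe set is a small step in signal.

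Faint members with large differences also overlapped. The gene fbxa-69 read 1.76, 1.64 and 1.91 on the control arrays and 2.32, 1.57 and 2.25 on the tyrosol arrays. Its tyrosol replicate 2 was the lowest of all 6 arrays, while the other tyrosol arrays were the highest. The difference was 0.28 (SE 0.19); without tyrosol replicate 2 it was 0.52 (limma adjusted p 0.149), without tyrosol replicate 1 it was 0.14 (limma adjusted p 0.918) and without tyrosol replicate 3 it was 0.18. In fbxa-3 the difference was 0.30 (SE 0.17) and in fbxa-11 it was 0.27 (SE 0.17), and in both genes the control arrays spread widely, from 1.35 to 1.98 and from 1.30 to 1.95. Without control replicate 3 these differences were 0.14 and 0.10; fbxa-3 gave 0.46 without control replicate 2, and fbxa-11 gave 0.42 without control replicate 1.

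On the lower side, fbxa-192 had the largest difference. Its values were 3.91, 3.48 and 3.57 on the control arrays and 3.39, 3.25 and 3.32 on the tyrosol arrays. Every tyrosol value lay below every control value, and control replicate 1 stood above the other controls. The means were 3.65 ± 0.23 and 3.32 ± 0.070 (SD, n = 3 each), a difference of -0.33 (SE 0.13, 95% interval -0.62 to -0.041) with a limma adjusted p of 0.604. It was -0.20 when control replicate 1, its highest array, was left out.

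The next 4 lower differences belonged to genes whose groups overlapped, with tyrosol replicate 1 close to the controls. The gene fbxa-170 read 4.87, 4.67 and 4.75 on the control arrays and 4.70, 4.04 and 4.60 on the tyrosol arrays. In fbxa-120 the control arrays read 4.16, 4.49 and 4.20, and the tyrosol arrays 4.21, 3.73 and 3.99. In both of these, tyrosol replicate 2 was the lowest array by a clear margin. The differences were -0.32 (SE 0.17) and -0.31 (SE 0.15), and without tyrosol replicate 2 they were -0.11 and -0.18. For fbxa-120 it was also -0.20 without control replicate 2 and -0.078 without both replicate 2 arrays.

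The gene fbxa-114 read 5.81, 5.99 and 5.98 on the control arrays, and 5.90, 5.48 and 5.52 on the tyrosol arrays, a difference of -0.30 (SE 0.13, limma adjusted p 0.695). The pseudogene fbxa-129 read 4.18, 4.32 and 4.24 against 4.20, 3.99 and 3.72, a difference of -0.28 (SE 0.13) that was -0.15 without tyrosol replicate 3. In each of these, tyrosol replicates 2 and 3 were low and tyrosol replicate 1 lay within the control values.

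The other 6 members whose tyrosol arrays all read lower were fbxa-218, fbxa-93, fbxa-172, fbxa-216, fbxa-19 and fbxa-141, with differences from -0.25 to -0.14. In fbxa-218 the control arrays read 1.92, 2.15 and 1.80 and the tyrosol arrays 1.72, 1.71 and 1.71. In fbxa-216 they read 2.89, 2.87 and 2.87 against 2.78, 2.46 and 2.79, and in fbxa-141 they read 2.67, 2.71 and 2.60 against 2.53, 2.50 and 2.54. The control arrays of fbxa-216 hardly differed, and control replicates 2 and 3 held exactly the same value. Its tyrosol replicate 2 stood well below the other tyrosol arrays, and without that array the difference was -0.089 in place of -0.20. For fbxa-218 it was -0.15 without control replicate 2, in place of -0.25, and tyrosol replicates 2 and 3 held exactly the same value. The pseudogene fbxa-93 had a difference of -0.22 (SE 0.10) on this probe set and of 0.096 (SE 0.13) on a second one.

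**Figure D2:**
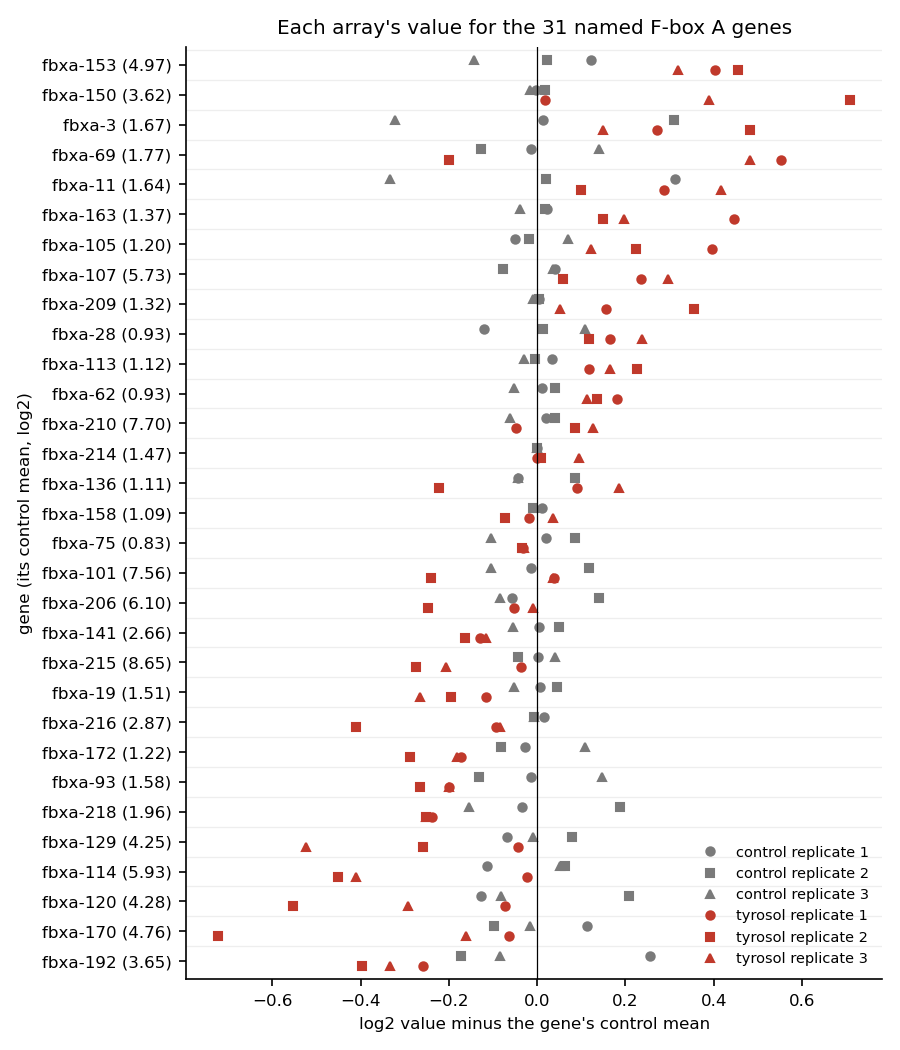
Value of each array minus the gene's mean over the 3 control arrays (horizontal axis, log2) for the 31 named F-box A genes, ordered by difference; grey marks are control arrays, red marks tyrosol arrays, shapes give the replicate and the control mean stands in brackets. The red marks of fbxa-153 lie to the right of all its grey marks and those of fbxa-192 to the left, while in fbxa-170 and fbxa-120 the red square of tyrosol replicate 2 lies farthest to the left.

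Both adaptors of the cullin 6 ligase were on faint probe sets and showed close values. The gene fbxa-158 read 1.10, 1.08 and 1.09 on the control arrays and 1.07, 1.02 and 1.12 on the tyrosol arrays. The gene fbxa-75 read 0.84, 0.91 and 0.72 against 0.79, 0.79 and 0.80. In each the groups overlapped. The differences were -0.019 (SE 0.085, 95% interval -0.21 to 0.18) for fbxa-158 and -0.032 (SE 0.091, 95% interval -0.24 to 0.18) for fbxa-75.

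The F-box A genes sat mostly on faint probe sets. The median mean level over all probe sets was 2.58, and 39 members (22.8%) had a mean above it, against 49.8% of all genes. On every array 32 members read above that array's median, 127 read below it on all 6 arrays and 12 varied. The mean level was under 2 for 112 members and over 5 for 13. Probe sets bind with unequal strength, so the levels rank no gene above another; they show how far a reading stood above the floor of the array. Exact repeats, in which a gene has the same value on 2 or more arrays, occurred in 40 members (23.4%), against 9.54% of all genes. Of these 40 members, 37 were among the 132 in the lower part of mean levels (28.0%, against 17.1% of the genes there). The other 3 were among the 39 in the upper part (7.69%, against 1.87%).

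The 6 members with the highest readings were fbxa-215, fbxa-210, fbxa-101, fbxa-206, fbxa-107 and fbxa-114. The gene fbxa-215 read 8.66, 8.61 and 8.69 on the control arrays and 8.62, 8.38 and 8.45 on the tyrosol arrays, with tyrosol replicate 1 inside the control values and the other tyrosol arrays below them. Its difference was -0.17 (SE 0.097). The gene fbxa-210 read 7.72, 7.74 and 7.64 against 7.66, 7.79 and 7.83, a difference of 0.056 (SE 0.093). The gene fbxa-101 read 7.55, 7.68 and 7.46 against 7.60, 7.32 and 7.60, a difference of -0.056 (SE 0.11). For fbxa-206 the values were 6.04, 6.24 and 6.01 against 6.04, 5.85 and 6.09, and the difference was -0.10 (SE 0.11). In fbxa-210, fbxa-101 and fbxa-206 the groups overlapped, and the sign of the last 2 depends on the replicate 2 arrays: without both, the differences were 0.095 and 0.040.

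**Figure D3:**
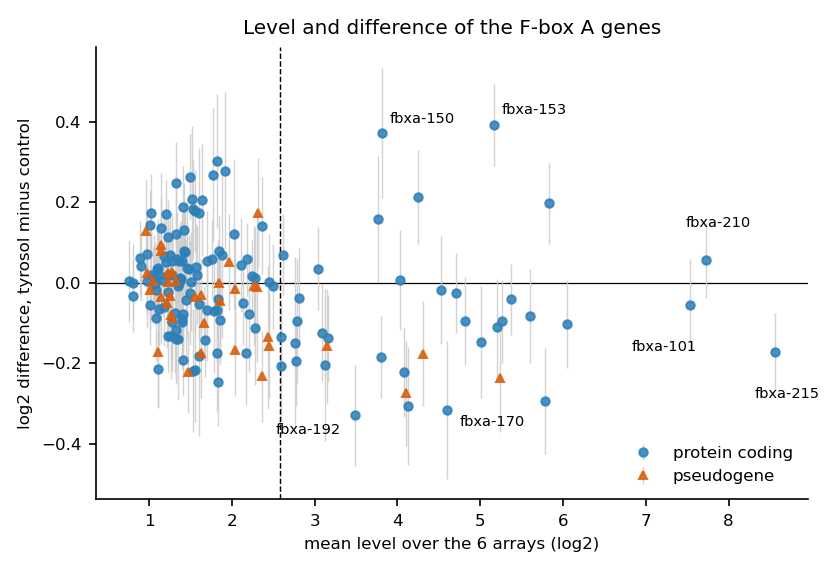
Mean level over the 6 arrays (horizontal axis, log2) against the log2 difference, tyrosol minus control (vertical axis), for the 171 measured F-box A genes, with bars of 1 SE; circles are protein-coding genes, triangles pseudogenes and the dashed line marks 2.58. Most members lie to the left of the line around a difference of 0, and to its right 30 of 39 lie below 0.

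Among the 39 members above a mean level of 2.58, 30 had a difference below 0 (76.9%), against 55.9% of the genes in the same range. Their median difference was -0.11, against -0.021 for those genes. Of the 39, 5 had groups that did not overlap, 2 higher and 3 lower (12.8%, against 18.3% of those genes), and 0 were called by either test. The 132 fainter members had a median of 0.0031, with 70 above 0 and 62 below. Keeping only the members above 2.58 was planned as an alternative for the family median. The medians of these 39 under other settings were not planned.

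The lean of the 39 towards lower values lay on 2 of the tyrosol arrays. The mean deviation from the control mean over these genes was -0.021 on tyrosol replicate 1, -0.13 on replicate 2 and -0.099 on replicate 3, and it was -0.023, 0.026 and -0.0022 on the control arrays. Over all genes in that range it lay between -0.020 and 0.027 on every array. The lowest of the 6 values fell on tyrosol replicate 2 for 20 of the 39 members (51.3%), against 29.5% of the genes, and on tyrosol replicate 3 for 9.

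Tyrosol replicate 2 is the array with the high 3' signal in the poly-A controls and with the lowest mean level of the oocyte markers. Its part in the lean was not tested beyond the following values. Without tyrosol replicate 2 the median of the 39 was -0.055, with 28 below 0. Over all genes in that range it was -0.013, with 53.8% below 0. With the 3' signal as a covariate in limma the 39 gave -0.046, with 23 below 0, against -0.010 and 52.7%. Without tyrosol replicate 1 they gave -0.16, with 30 below 0, against -0.019 and 54.8%.

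**Figure D4:**
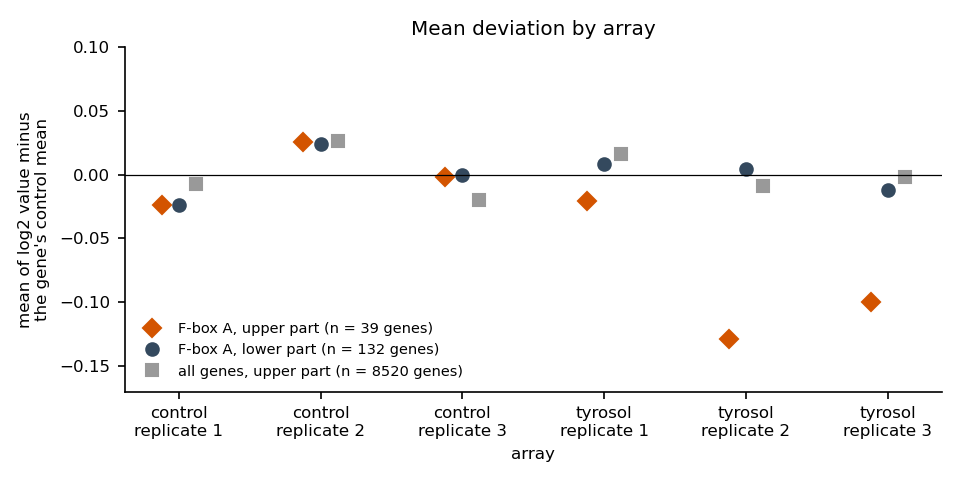
Mean over genes of each array's log2 value minus the gene's control mean (vertical axis), by array, for the 39 F-box A genes in the upper part of mean levels (orange diamonds), the 132 in the lower part (dark circles) and all genes in the upper part (grey squares). The orange diamonds reach -0.13 and -0.099 on tyrosol replicates 2 and 3, while the circles and squares stay near 0 on every array.

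By gene type, 135 measured members are protein coding and 36 are pseudogenes in the RefSeq names. The protein-coding members had a median difference of 0.00011, with 68 above 0 and 67 below, and 14 without overlap. The pseudogenes had a median of -0.034, with 11 above 0 and 25 below and a range of -0.28 to 0.17, and only fbxa-93 among them showed no overlap. Over all genes 13.7% were without overlap and 55.3% were below 0. The difference between the 2 types was not tested. Both types had 0 members called.

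Of the 171 probe sets, 6 carry the array's mark for probes shared with other sequences; their median difference was -0.064 and 0 were called. In a family of close copies a probe set without that mark may still bind a related transcript, which these data do not resolve. The 16 probe sets that name several genes, an F-box A gene among them, gave differences from -0.34 (SE 0.19), for fbxa-208 with fbxa-77, to 0.14 (SE 0.091), for fbxa-222 with fbxa-152. Of these, 6 were above 0, 0 were without overlap and 0 were called. The 4 members with a second probe set of their own were fbxa-136, fbxa-150, fbxa-214 and fbxa-93, and in each of the 4 the probe sets differed in sign. For fbxa-214 the differences were 0.035 and -0.095, and for fbxa-136 they were 0.018 and -0.032.

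Many F-box A genes stand next to one another in the genome. In the RefSeq gene order, 135 of the 222 genes lay in 41 runs of 2 or more adjacent members, the longest with 10 genes. In that longest run, which holds fbxa-75, the 5 measured members differed by -0.032 to 0.17. The run of fbxa-164, fbxa-165, fbxa-166, fbxa-158, fbxa-159 and fbxa-160 had 3 members above 0 and 3 below. The run of fbxa-191, fbxa-192, fbxa-193, fbxa-129 and fbxa-108 had all 5 members below 0, from -0.33 to -0.0077. The run of fbxa-67, fbxa-23, fbxa-11 and fbxa-10 had all 4 members above 0, from 0.019 to 0.27. Of the 29 runs with 2 or more measured members, 11 had a single sign. Many of these runs had only 2 measured members, and the count to be had from random signs was not worked out.

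The lists of related genes place the family among the parts of the same ligases. They were chosen with earlier results of these data known. Over all genes the rank product called 0.865% higher and 0.0234% lower, and limma called 0.351%. Among the SKP1-related genes, whose products link F-box proteins to cullins, 1 of 19 was called, and it was called by both tests. That gene, skr-21, read 5.28, 5.68 and 5.28 on the control arrays and 6.50, 6.58 and 6.29 on the tyrosol arrays. All tyrosol values lay above all control values. It rose by 1.04 (SE 0.14), with a limma adjusted p of 0.032 and a false discovery rate of 0.0024. With any 1 array left out the rank product still called it, with differences from 0.97 to 1.18, while limma called it only without control replicate 2 (adjusted p up to 0.214). The related skr-20 and skr-19 differed by 0.45 (SE 0.13) and 0.46 (SE 0.14), with limma adjusted p values of 0.386 and 0.444.

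The other parts of the machinery were not called. In the SCF core and neddylation list 0 of 10 genes were called, with a median of -0.052; cul-1, the cullin scaffold, differed by -0.18 (SE 0.16), rbx-1, the RING subunit, by -0.18 (SE 0.13), and cand-1, which exchanges adaptors on the cullin, by 0.20 (SE 0.13). Of the 6 cullins, the 6 COP9 signalosome genes, which remove NEDD8 from cullins, and the 3 ubiquitin genes, 0 were called, with medians of -0.056, -0.064 and 0.012. A list of 7 F-box genes outside the numbered families, among them fog-2, whose protein has an FTH domain too, also had 0 calls and a median of -0.012; fbxl-1, with leucine-rich repeats, differed by 0.21 (SE 0.093) and mec-15, needed for touch sensing, by -0.14 (SE 0.093).

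The 7 genes of the cullin 6 complex, fbxa-75 and fbxa-158 included, had 0 calls and a median of -0.076. The largest difference there was that of skr-5, at -0.28 (SE 0.11, limma adjusted p 0.593), while cul-6 itself differed by -0.076 (SE 0.13), rcs-1, its RING subunit, by -0.22 (SE 0.15), skr-3 by -0.18 (SE 0.19) and skr-4 by 0.032 (SE 0.24). The pals genes, which include markers and regulators of the intracellular pathogen response, had 0 of 23 called and a median of 0.030. Among them pals-22, a repressor of that response, differed by 0.49 (SE 0.13, limma adjusted p 0.305).

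The F-box A genes also stood beside their sister families B and C. In family B the rank product called 4 of 95 genes higher and 0 lower, against 0.865% and 0.0234% of all genes. The median difference was 0.14 and 31 genes (32.6%) were without overlap, against 13.7% of all genes. The called genes were fbxb-101, fbxb-66, fbxb-88 and fbxb-102, which rose by 0.67 (fbxb-102) to 1.10 (fbxb-101). In family C the rank product called 1 of 44, fbxc-40, which rose by 1.12. The median there was 0.053 and 8 genes (18.2%) were without overlap, against the same 13.7%. With limma 2 family B genes and 0 family C genes were called, against 0.351% of all genes. With the replicate number as a block these became 4 and 1, beside 125 of all 17118 genes, and the rank product then added fbxc-34. With 1 array left out, fbxb-101, fbxb-66 and fbxc-40 were called by the rank product in all 6 cases, fbxb-88 in 5 (not without tyrosol replicate 3) and fbxb-102 in 1 (without control replicate 2). The difference between the families was not tested. The called sperm markers, noah-1, noah-2 and wrt-10 were higher on the same tyrosol arrays. Their part in the values of families B and C and of skr-21 was not tested.

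**Figure D5:**
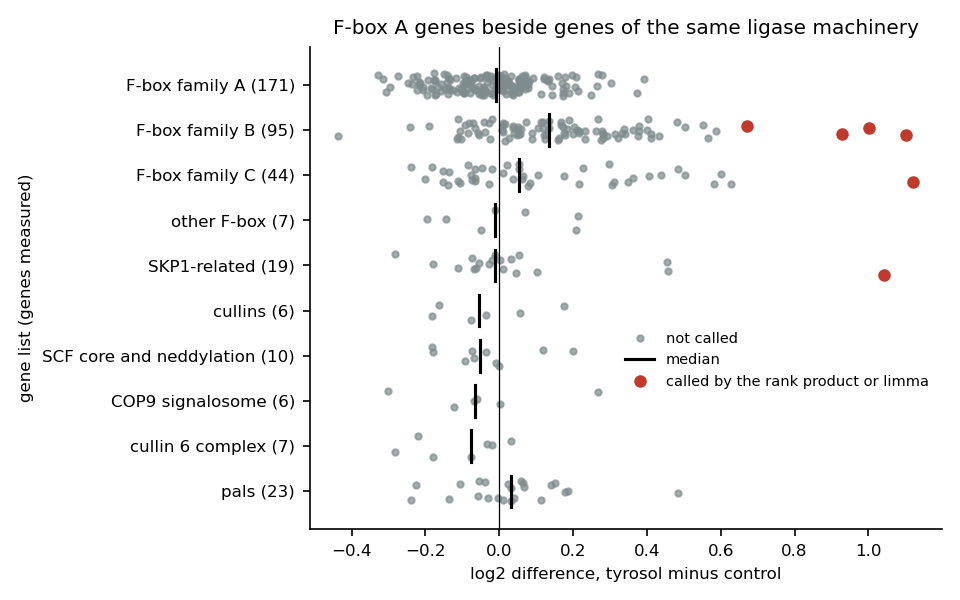
Log2 difference, tyrosol minus control (horizontal axis), of each measured gene in the F-box A family and in the related lists; grey points are genes that were not called, large red points genes called by the rank product or limma, and black lines medians. The F-box A points lie between -0.33 and 0.39 with no red point, while families B and C and the SKP1-related genes hold the red points.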

How the data were processed

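RNA of whole worms was read on 6 arrays, 3 per group, grouped by the treatment in the labels. The deposited values are log2 expression values made by the authors with RMA, per the series' design text and the submitters' processing notes; its version is not stated. The number of arrays limits the precision. Of 22625 probe sets, 77 controls were left out. The other 22548 were named through the platform annotation and RefSeq (WBcel235, used for names, gene type and neighbour order): 20766 name 1 gene, 887 several and 895 none. No label or header names the build of the annotation, so coordinates are left out.

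The rank product was programmed in Python 3.11.15 (numpy 2.4.6, pandas 2.3.3, scipy 1.17.1): 9 differences were ranked, with 100 permutations within arrays and a false discovery rate under 0.05. Differences, SEs, 95% intervals and p-values come from limma 3.58.1 in R 4.3.3, two-sided, with Benjamini-Hochberg adjustment over the 22548 probe sets. Both were tested on simulated data with differences far larger than any in the family, so that test does not cover differences of the size seen here. Family percentages are set beside the same share over all genes.

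Members named in the text are those called, those without overlap, the 5 largest differences each way, the 6 highest means, fbxa-75 and fbxa-158, and genes whose probe sets differ in sign. From the other lists, called genes or up to 3 of lowest limma p are named, and the cullin 6 complex in full. The members and lists were chosen with earlier results of these data known. Deviations of same-numbered arrays correlated over probe sets at 0.112, 0.374 and 0.261, all above 0.1, so the replicate numbers were taken as pairs in an alternative fit; control replicate 3 with tyrosol replicate 1, of unlike number, gave 0.275. Other alternatives left out arrays, faint or cross-hybridising probe sets, averaged probe sets, centred the arrays, changed the seed or added the 3' signal as a covariate.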

Additional observations from a re-analysis of the deposited data

How the results depend on the processing

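No F-box A gene was called by the rank product or by limma with all arrays, or under any of the 14 alternatives run for each; with the replicate block, which pairs the arrays by number, the calls stayed at 0 in each direction and 0 by limma, while limma called 125 genes in place of 60 over all genes. Of the alternatives, centring each array on its median cannot change the rank product, because all genes of an array shift alike. The lowest limma adjusted p of a member was 0.105 (fbxa-69, with the 3' signal as a covariate). The count of members without overlap was 15; leaving out 1 array gave 22 to 46, or 12.9% to 26.9% of members against 21.0% to 26.6% of all genes, since fewer arrays overlap less by construction, leaving out both replicate 2 arrays gave 58 (33.9%, against 39.2% of genes), and keeping the upper part of mean levels, which tests fewer genes, gave 5 (12.8%, against 18.3%), or 9 without tyrosol replicate 2 (23.1%, against 32.4%), a setting chosen after seeing the data. The family median ran from -0.035 to -0.0013 with 1 array left out and was 0.0043 without both replicate 2 arrays; it was -0.11 in the upper part and -0.055 there without tyrosol replicate 2, and the cause was not tested.

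Of the 31 named members, 6 changed sign under some setting, all with small differences, and the cause was not tested. With 1 array left out, the difference ran from -0.11 to 0.037 for fbxa-101, from -0.066 to 0.14 for fbxa-136, from -0.045 to 0.0087 for fbxa-158 and from -0.084 to 0.011 for fbxa-75. Without both replicate 2 arrays it was 0.095 for fbxa-101, 0.040 for fbxa-206, 0.0043 for fbxa-158 and 0.012 for fbxa-75. With the 3' covariate it was 0.048 for fbxa-101 and 0.012 for fbxa-158, and in the upper part without tyrosol replicate 2 it was 0.037 for fbxa-101. Averaging the probe sets gave -0.0071 for fbxa-136 and -0.030 for fbxa-214. The number of arrays limits the precision, and 127 members lay below the median of every array.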
